A study of Medicago truncatula with 4 samples.

Results

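The expression of *KNOX* (KNOTTED-like homeobox) genes was examined in embryogenic calli of *Medicago truncatula*. The genes were found by searching the deposited annotation for KNOX in the gene acronym and for KNOX or KNOTTED in the description, with BEL-Like genes left out. This search found 12 of the 52709 genes in the count table. Of these, 11 were *KNOX* genes, and the last one, *MtKTN*, was matched only because it is described as a KNOTTED binding protein. Only 3788 genes carried an acronym or a description, so *KNOX* genes without one would have been missed.

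Calli were obtained from leaf explants of *M. truncatula* R108, a line used for its capacity for somatic embryogenesis (SE). The group with *MtWOX9-1* overexpression came from R108 plants carrying a transgenic insertion from the pMDC32 plasmid with the coding sequence of *MtWOX9-1*, and the other group came from wildtype R108 plants. pMDC32 is an overexpression vector with a constitutive promoter, and the number of independent transgenic lines behind the calli is not given in the sources used here. In both groups, plants had been in soil for 35 days at the start. Explants of both groups were kept for 30 days with the synthetic auxin 2,4-D (18 μM) and the cytokinin BAP (2.22 μM). Calli then spent 5 days without hormones, so that RNA was taken on day 35. Each group had 2 biological replicates. Library totals were 6666866 and 6399209 counts in calli with *MtWOX9-1* overexpression, against 6065277 and 5241334 counts in wildtype calli. Replicates of both groups differed by more than counting noise, as chi-square divided by its degrees of freedom was 7.71 for calli with *MtWOX9-1* overexpression and 6.80 for wildtype calli. *MtWOX9-1* itself had 7692 and 7634 counts in the calli with its overexpression, against 2 and 18 counts in wildtype calli, which fits the labels of all 4 libraries.

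KNOX proteins are homeodomain transcription factors of the TALE group, which act in pairs with BELL proteins of the same group. Class I genes are known for keeping cells of the shoot apical meristem undifferentiated, and class II genes are expressed mostly in differentiating and mature tissues, where in *Arabidopsis* they act in opposition to class I genes. Class M genes encode short proteins that lack the homeodomain and can bind the partners of other KNOX proteins. The files name the class of *MtFCL1* only. The classes of the other *KNOX* genes were assigned here from general knowledge of the family, with *MtKNOX1*, *2*, *6*, *7* and *8* in class I and *MtKNOX3*, *4*, *5*, *9* and *10* in class II.

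Class II genes gave most of the *KNOX* counts in the calli, and 4 of the 5 class II genes had a lower expression level in the calli with *MtWOX9-1* overexpression. The fifth, *MtKNOX10*, stayed close to its wildtype level. Class I genes gave few counts in both groups, with *MtKNOX2* lower and *MtKNOX7*, *MtKNOX1* and *MtKNOX8* higher in calli with *MtWOX9-1* overexpression. The class M gene *MtFCL1* had counts in wildtype calli only.

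Among the 12 genes, 11 had the 10 counts over the 4 libraries needed for testing. By the quasi-likelihood test of edgeR, adjusted after Benjamini-Hochberg over all 24630 genes tested, 6 of them were lower and 4 were higher in calli with *MtWOX9-1* overexpression at an adjusted p under 0.05, and 1 did not pass. Such calls were frequent in the transcriptome as a whole, as 39.2% of all tested genes passed, 20.3% being higher and 18.9% lower. The median log2 fold change was −1.51 over the 11 genes and 0.04 over all genes tested. A log2 fold change is given throughout as calli with *MtWOX9-1* overexpression over wildtype calli. The 12 genes together took 99.6 and 106 CPM (counts scaled to a common library total) in calli with *MtWOX9-1* overexpression, against 433 and 329 CPM in wildtype calli. In whole calli, a smaller share of cells expressing a gene and less of its RNA per cell cannot be told apart.

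**Figure D1:**
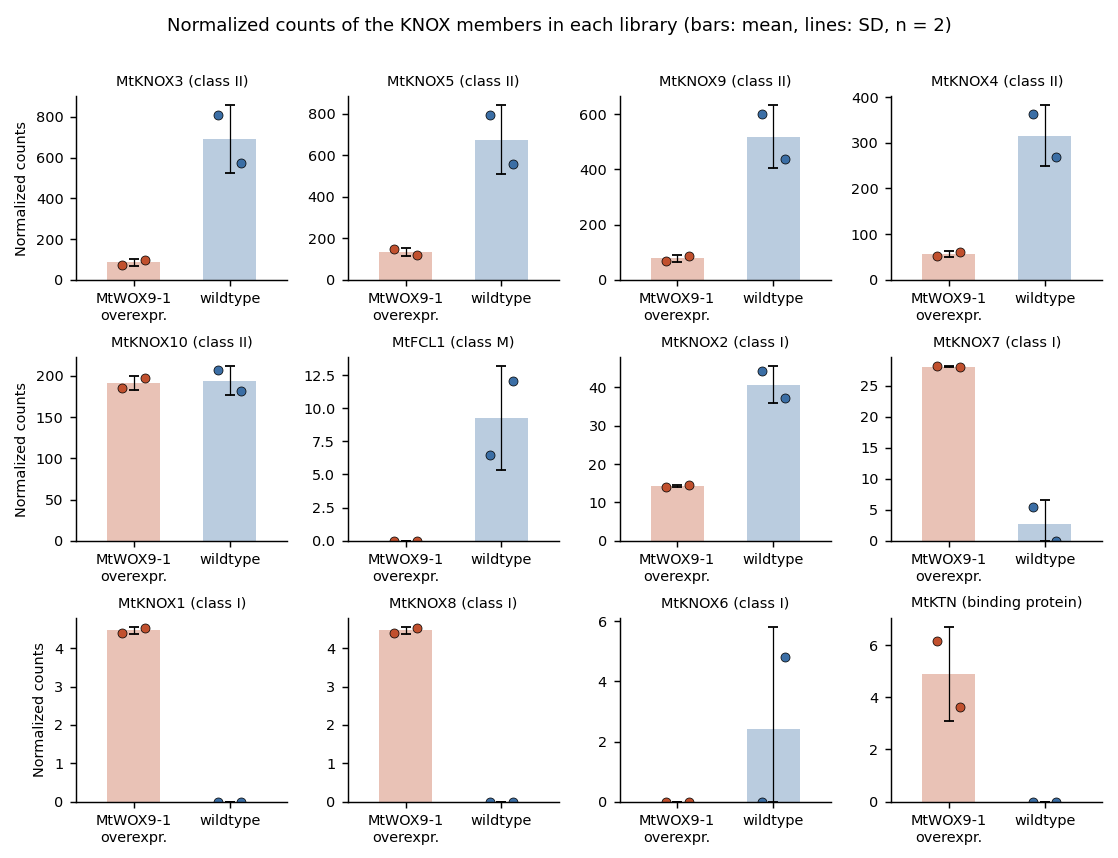
Normalized counts (counts scaled to the mean effective library size) of each of the 12 genes, with calli with *MtWOX9-1* overexpression on the left and wildtype calli on the right of each panel; points are libraries, bars are means and lines are SD (n = 2), cut at 0. *MtKNOX3*, *MtKNOX5*, *MtKNOX9* and *MtKNOX4* stand lower in both libraries with *MtWOX9-1* overexpression, *MtKNOX10* overlaps between the groups, and *MtKNOX7* stands at 28.2 and 28.1 against 5.38 and 0.

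Among the class II genes, *MtKNOX3* (MtrunA17Chr1g0149651, chromosome 1), known in *M. truncatula* as a regulator of cytokinin genes in symbiotic nodules, was lower in calli with *MtWOX9-1* overexpression. It had 84 and 107 counts in calli with *MtWOX9-1* overexpression, against 751 and 476 counts in wildtype calli. Both libraries of the first group lay far below both wildtype libraries. In normalized counts this was 85.4 ± 16.2 in calli with *MtWOX9-1* overexpression and 691 ± 167 in wildtype calli (SD, n = 2 each), an 8.09-fold lower level with a log2 fold change of −3.02 (SE 0.24, edgeR adjusted p = 0.0029).

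*MtKNOX9* (MtrunA17Chr4g0065241, chromosome 4) had 79 and 96 counts in calli with *MtWOX9-1* overexpression, against 557 and 364 counts in wildtype calli. The groups were again widely separated, with 78.2 ± 12.3 and 519 ± 114 normalized counts in calli with *MtWOX9-1* overexpression and wildtype calli (SD, n = 2 each). Its expression level was 6.63-fold lower, with a log2 fold change of −2.73 (SE 0.22, edgeR adjusted p = 0.0029).

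*MtKNOX4* (MtrunA17Chr5g0398181, chromosome 5) is required in *M. truncatula* for the physical dormancy of seeds. It had 58 and 68 counts in calli with *MtWOX9-1* overexpression, against 337 and 223 counts in wildtype calli. These counts amounted to 56.3 ± 7.42 and 316 ± 66.9 normalized counts in calli with *MtWOX9-1* overexpression and wildtype calli (SD, n = 2 each). Its level was 5.60-fold lower, with a log2 fold change of −2.49 (SE 0.21, edgeR adjusted p = 0.0032).

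*MtKNOX5* (MtrunA17Chr3g0137241, chromosome 3) fell as well, with 167 and 131 counts in calli with *MtWOX9-1* overexpression, against 736 and 464 counts in wildtype calli. Its normalized counts were 133 ± 20.1 in calli with *MtWOX9-1* overexpression and 675 ± 166 in wildtype calli (SD, n = 2 each). This was a 5.08-fold lower level, with a log2 fold change of −2.35 (SE 0.23, edgeR adjusted p = 0.0037).

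These 4 genes passed the test under each of 10 alternatives with an adjusted p-value of their own, the largest being 0.021. Leaving out any single library kept their log2 fold changes between −3.24 and −2.07. Wildtype replicate 1 had more than replicate 2 for all of them, by 1.41 times for *MtKNOX3*, 1.42 times for *MtKNOX5*, 1.37 times for *MtKNOX9* and 1.35 times for *MtKNOX4* in normalized counts. The same ratio was 1.14 for *MtKNOX10*. Between the replicates with *MtWOX9-1* overexpression, *MtKNOX5* was higher in replicate 1 (1.24 times), whereas *MtKNOX3*, *MtKNOX9* and *MtKNOX4* were lower in it (0.763, 0.800 and 0.829 times). The difference between the groups was therefore larger than the spread between replicates for all 4 genes.

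*MtKNOX10* (MtrunA17Chr2g0305101, chromosome 2) was the class II gene that did not pass. It had 211 and 218 counts in calli with *MtWOX9-1* overexpression, against 192 and 151 counts in wildtype calli. After scaling, its 186 and 197 normalized counts in calli with *MtWOX9-1* overexpression overlapped with 207 and 182 in wildtype calli. The log2 fold change was −0.02 (SE 0.13, edgeR adjusted p = 0.91). Its sign depended on the scaling, being 0.12 with library size as the only scaling, where the median of all genes was 0.18. Leaving out 1 library gave values between −0.11 and 0.07.

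**Figure D2:**
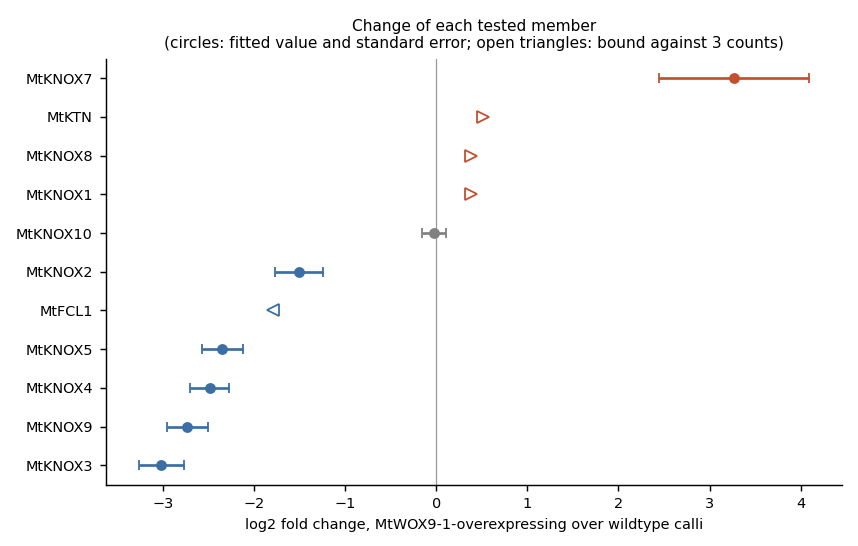
The log2 fold change (horizontal axis, calli with *MtWOX9-1* overexpression over wildtype calli) of the 11 tested genes; circles are fitted values with standard error bars, and open triangles are bounds against 3 counts for genes at 0 in both libraries of a group. *MtKNOX3*, *MtKNOX9*, *MtKNOX4* and *MtKNOX5* lie between −3.02 and −2.35, *MtKNOX10* lies at −0.02, and *MtKNOX7* lies at 3.26 with the widest error.

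The division of class II counts among the 5 genes also differed between the groups. These shares are of counts that are not corrected for transcript length, so that they compare libraries and not genes. *MtKNOX10* took 35.2% and 35.2% of the 599 and 620 class II counts in calli with *MtWOX9-1* overexpression (95% Wilson intervals 31.5% to 39.1% and 31.5% to 39.0%). In wildtype calli it took 7.46% and 9.0% of 2573 and 1678 counts (6.51% to 8.54% and 7.72% to 10.5%). The intervals cover counting error only, as do all limits given here for a count of 0. Thus the share of *MtKNOX10* was similar within each group and did not overlap between them.

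The share of *MtKNOX3* was 14.0% and 17.3% in calli with *MtWOX9-1* overexpression, against 29.2% and 28.4% in wildtype calli. The share of *MtKNOX9* was 13.2% and 15.5% in calli with *MtWOX9-1* overexpression, against 21.6% and 21.7% in wildtype calli. *MtKNOX5*, with 27.9% and 21.1% in calli with *MtWOX9-1* overexpression, overlapped with its 28.6% and 27.7% in wildtype calli. *MtKNOX4* took 9.68% and 11.0% in calli with *MtWOX9-1* overexpression, against 13.1% and 13.3% in wildtype calli. Its share was thus lower without overlap between the groups.

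As ratios within a library do not depend on the scaling, *MtKNOX10* was also set against each of the other class II genes. With *MtKNOX10* at a log2 fold change of −0.02, these ratios restate the fold changes of the other genes and are not a further finding. As for all tests here, the choice was made with earlier results of these data known. There were 2.51 and 2.04 counts of *MtKNOX10* for each count of *MtKNOX3* in calli with *MtWOX9-1* overexpression, against 0.256 and 0.317 in wildtype calli. For *MtKNOX5*, the ratios were 1.26 and 1.66 in calli with *MtWOX9-1* overexpression, against 0.261 and 0.325 in wildtype calli. The mean log2 ratios of the groups differed by 2.99 for *MtKNOX3*, 2.32 for *MtKNOX5*, 2.70 for *MtKNOX9* and 2.46 for *MtKNOX4*, and the groups did not overlap for any of them. With 2 libraries against 2, an exact permutation test cannot give a two-sided p below 0.333, and no other test of these 4 differences was run.

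**Figure D3:**
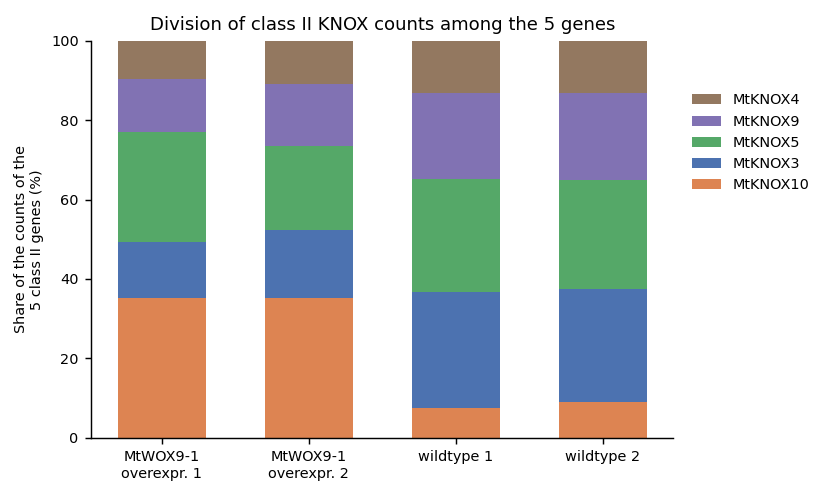
Share of the counts of the 5 class II genes taken by each gene (vertical axis, %), in each of the 2 libraries with *MtWOX9-1* overexpression (left) and the 2 wildtype libraries (right). *MtKNOX10*, at the bottom of each bar, takes 35.2% in both libraries with *MtWOX9-1* overexpression and 7.46% and 9.0% in the wildtype libraries.

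The few counts of the class I genes make their values less precise. *MtKNOX2* (MtrunA17Chr1g0151961, chromosome 1), annotated also as *MtKNAT1* after the *Arabidopsis* gene known as *BREVIPEDICELLUS*, which shapes stem and pedicel growth, was lower in calli with *MtWOX9-1* overexpression. It had 16 and 16 counts in calli with *MtWOX9-1* overexpression, against 41 and 31 counts in wildtype calli. Its level was 2.84-fold lower, with a log2 fold change of −1.51 (SE 0.26, edgeR adjusted p = 0.012). It missed the threshold without replicate 1 of the calli with *MtWOX9-1* overexpression (adjusted p = 0.053) and with DESeq2 (adjusted p = 0.095).

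*MtKNOX7* (MtrunA17Chr5g0413201, chromosome 5) was the only class I gene that was higher in calli with *MtWOX9-1* overexpression and had counts in wildtype calli. It had 32 and 31 counts in calli with *MtWOX9-1* overexpression, against 5 and 0 counts in wildtype calli. The groups did not overlap, but the wildtype libraries differed, and the log2 fold change of 3.26 (SE 0.82, edgeR adjusted p = 0.033) moved to 7.85 without wildtype replicate 1 and to 2.36 without wildtype replicate 2. It missed the threshold in 5 of 10 alternatives, among them DESeq2 (adjusted p = 0.060) and the omission of replicate 1 or 2 of the calli with *MtWOX9-1* overexpression (adjusted p = 0.11 and 0.098).

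*MtKNOX1* (MtrunA17Chr2g0289201, chromosome 2) and *MtKNOX8* (MtrunA17Chr1g0192791, chromosome 1) had the same counts, namely 5 and 5 in calli with *MtWOX9-1* overexpression and 0 and 0 in wildtype calli. Both genes were thus at the edge of detection. Against 3 counts in each library, the limit that a count of 0 allows, each was 1.31-fold higher in calli with *MtWOX9-1* overexpression. This fold leaves out the counting error of the 5 and 5 counts, so a smaller one is not excluded. Each gene had an edgeR adjusted p of 0.033. They passed in 3 of 6 alternatives and missed the threshold without wildtype replicate 1 (adjusted p = 0.059). Without either library with *MtWOX9-1* overexpression they fell below the minimum count. Whether reads shared with related genes entered these counts was not tested.

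*MtKNOX6* (MtrunA17Chr5g0439391, chromosome 5) had 0 and 0 counts in calli with *MtWOX9-1* overexpression and 0 and 4 counts in wildtype calli, and was not tested. Its 4 counts in wildtype replicate 2 were 0.763 CPM, and a count of 0 in the other 3 libraries allows between 0.450 and 0.495 CPM. A difference between the groups was not detectable at this depth.

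Although single class I genes moved in both directions, their sum differed little. It was 8.70 and 8.91 CPM in calli with *MtWOX9-1* overexpression, against 7.58 and 6.68 CPM in wildtype calli. The class II sum was 89.8 and 96.9 CPM in calli with *MtWOX9-1* overexpression, against 424 and 320 CPM in wildtype calli. Class I genes thus took 8.83% and 8.42% of the counts of the 11 *KNOX* genes in calli with *MtWOX9-1* overexpression (95% Wilson intervals 6.89% to 11.2% and 6.56% to 10.7%), against 1.75% and 2.03% in wildtype calli (1.32% to 2.33% and 1.46% to 2.81%). Within class I, the division of counts differed too. *MtKNOX7* took 55.2% and 54.4% of class I counts in calli with *MtWOX9-1* overexpression, against 10.9% and 0% in wildtype calli. *MtKNOX2* took 27.6% and 28.1% in calli with *MtWOX9-1* overexpression, against 89.1% and 88.6% in wildtype calli.

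The class M gene *MtFCL1* (MtrunA17Chr6g0479181, chromosome 6), or *FUSED COMPOUND LEAF1*, is known for its role in the shape of the compound leaf of *M. truncatula*. It had 0 and 0 counts in calli with *MtWOX9-1* overexpression, against 6 and 10 counts in wildtype calli. Its level was at least 3.45-fold lower (edgeR adjusted p = 0.021). It passed in 5 of 8 alternatives and missed the threshold with DESeq2 (adjusted p = 0.072). It also missed the threshold without replicate 1 of the calli with *MtWOX9-1* overexpression. With filterByExpr, and without wildtype replicate 2, it had too few counts to be tested.

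*MtKTN* (MtrunA17Chr4g0066341, chromosome 4), the gene annotated as a KNOTTED binding protein, had 7 and 4 counts in calli with *MtWOX9-1* overexpression and 0 and 0 counts in wildtype calli. It was at least 1.43-fold higher (edgeR adjusted p = 0.038), but missed the threshold in 4 of 7 alternatives, including DESeq2 (adjusted p = 0.30) and the omission of wildtype replicate 1 (adjusted p = 0.066).

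The bounds for *MtFCL1*, *MtKNOX1*, *MtKNOX8* and *MtKTN* rest on counts of 0 in a whole group. In this count table, 0 was also found where the other replicate of the group had many counts. Of the genes with at least 20 counts in 1 replicate, 151 of 19053 were at 0 in the other replicate with *MtWOX9-1* overexpression, and 184 of 17803 were at 0 in the other wildtype replicate.

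BELL genes, which encode the partners of KNOX proteins, mostly had a lower expression level as well. Of 13 annotated genes, 8 were tested, 7 were lower and 1 did not pass, and the median log2 fold change of the 8 was −2.44. Over all genes tested, 18.9% were lower. Of the 7, 5 passed in all 10 alternatives. *MtBELL1-1* had 75 and 113 counts in calli with *MtWOX9-1* overexpression, against 987 and 765 counts in wildtype calli (log2 fold change −3.56, SE 0.24, edgeR adjusted p = 0.0026). An *MtBELL* gene on chromosome 4 (MtrunA17Chr4g0008591) had 0 and 0 counts in calli with *MtWOX9-1* overexpression, against 27 and 18 counts in wildtype calli, a level at least 9.47-fold lower (edgeR adjusted p = 0.0069). There were 1.22 and 1.51 *BELL* counts for each class II *KNOX* count in calli with *MtWOX9-1* overexpression, against 1.75 and 2.12 in wildtype calli. With *MtKNOX10* left out of the class II sum, a choice made after its values were seen, the ratios were 1.89 and 2.34 in calli with *MtWOX9-1* overexpression, against 1.89 and 2.33 in wildtype calli.

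In other species, class I KNOX proteins are known to repress gibberellin (GA) 20-oxidase genes, which encode GA biosynthesis enzymes, and to activate GA 2-oxidase genes, which encode enzymes of GA inactivation. GA 20-oxidases moved both ways, with 1 higher, 2 lower and 1 not passing among 4 tested. *MtGA20ox6* had 34 and 21 counts in calli with *MtWOX9-1* overexpression and 0 and 0 counts in wildtype calli, a level at least 7.16-fold higher (edgeR adjusted p = 0.0095). *MtGA20ox1* had 0 and 0 counts in calli with *MtWOX9-1* overexpression, against 50 and 62 counts in wildtype calli, a level at least 24.0-fold lower (edgeR adjusted p = 0.0040). These genes thus stood at opposite ends, each being at 0 in the group where the other was expressed. *MtMSD1*, annotated among the GA 20-oxidases, had 0 and 0 counts in calli with *MtWOX9-1* overexpression, against 5 and 6 counts in wildtype calli (edgeR adjusted p = 0.023, passing in 3 of 7 alternatives).

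Of the 5 tested GA 2-oxidases, 4 were lower, against 18.9% of all genes tested, and 1 did not pass. Their median log2 fold change was −2.29. The gene that did not pass pointed the other way (log2 fold change 2.29, SE 1.00, edgeR adjusted p = 0.13). It had 25 and 33 counts in calli with *MtWOX9-1* overexpression, against 0 and 9 counts in wildtype calli. *MtGA2ox1* had 134 and 178 counts in calli with *MtWOX9-1* overexpression, against 909 and 592 counts in wildtype calli (log2 fold change −2.60, SE 0.24, edgeR adjusted p = 0.0035). The gene annotated as *MtGA2ox* (MtrunA17Chr2g0285931) had 32 and 35 counts in calli with *MtWOX9-1* overexpression, against 154 and 149 counts in wildtype calli (log2 fold change −2.52, SE 0.16, edgeR adjusted p = 0.0026). Both were clearly separated between the groups.

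*MtGA3ox1*, encoding a GA 3-oxidase of the last step to active GA, had 0 and 5 counts in calli with *MtWOX9-1* overexpression, against 32 and 72 counts in wildtype calli (log2 fold change −4.67, SE 0.96, edgeR adjusted p = 0.019). Without replicate 1 of the calli with *MtWOX9-1* overexpression this was −3.69 and missed the threshold (adjusted p = 0.056), and without replicate 2 it was −8.86. *MtGA3ox2*, with 0 and 0 counts in calli with *MtWOX9-1* overexpression and 3 and 2 counts in wildtype calli, was not tested. For comparison, 39.2% of all tested genes passed in either direction. Among 8 tested genes annotated as GA oxidase-like, 1 was higher, 3 were lower and 4 did not pass. They ranged in log2 fold change up to 4.41 for *MtGAOL15*, with 396 and 376 counts in calli with *MtWOX9-1* overexpression, against 0 and 28 counts in wildtype calli (edgeR adjusted p = 0.016, passing in 7 of 10 alternatives). Omitting wildtype replicate 1 or 2 gave 3.35 and 11.5, and the call was lost without either library with *MtWOX9-1* overexpression (adjusted p = 0.061 and 0.051). *MtGAOL4* and *MtGAOL6* were lower, with log2 fold changes of −1.85 (SE 0.35, passing in 6 of 10 alternatives) and −1.22 (SE 0.17).

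Cytokinin biosynthesis genes are other known targets, since class I KNOX proteins activate isopentenyl transferase (*IPT*) genes in *Arabidopsis* and rice. Of 3 tested *IPT* genes, *MtIPT1* (MtrunA17Chr1g0209731) was higher, with 34 and 31 counts in calli with *MtWOX9-1* overexpression, against 2 and 5 counts in wildtype calli (log2 fold change 2.82, SE 0.48, edgeR adjusted p = 0.012), and the others did not pass. *MtIPT1* missed the threshold without replicate 1 of the calli with *MtWOX9-1* overexpression (adjusted p = 0.053), and omitting wildtype replicate 1 or 2 gave log2 fold changes of 2.24 and 3.68. Of 5 tested *LONELY GUY* (*LOG*) genes, which encode enzymes releasing active cytokinins, 1 was higher, 1 was lower and 3 did not pass. As 39.2% of all tested genes passed, these counts do not set the *IPT* and *LOG* lists apart from the transcriptome. *MtLOG3* had 39 and 24 counts in calli with *MtWOX9-1* overexpression and 0 and 0 counts in wildtype calli (at least 8.20-fold higher, edgeR adjusted p = 0.0086). The gene annotated as LOG-like 4 had 45 and 42 counts in calli with *MtWOX9-1* overexpression, against 197 and 146 counts in wildtype calli (log2 fold change −2.32, SE 0.17, edgeR adjusted p = 0.0027).

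*MtLOG1*, *MtLOG2* and *MtIPT3*, which MtKNOX3 is known to activate in nodules, fall outside the naming rule and were picked with their values known. *MtLOG1* had 0 and 19 counts in calli with *MtWOX9-1* overexpression and 0 and 0 in wildtype calli, and *MtLOG2* had 12 and 12 counts in calli with *MtWOX9-1* overexpression and 0 and 14 in wildtype calli. Neither passed the test. *MtIPT3* had 1 and 0 counts in calli with *MtWOX9-1* overexpression and 0 and 0 in wildtype calli.

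Among regulators of *KNOX* genes, *MtAS1*, the homolog of the *Arabidopsis* gene *AS1*, which represses class I *KNOX* genes, had 17 and 11 counts in calli with *MtWOX9-1* overexpression, against 118 and 91 counts in wildtype calli. This was a lower level in both libraries, with a log2 fold change of −3.23 (SE 0.26, edgeR adjusted p = 0.0029). *MtAS2*, homologous to the gene for its partner, had 0 and 1 counts in calli with *MtWOX9-1* overexpression and 0 and 0 counts in wildtype calli and was not tested. *TCP* genes, some of which limit class I *KNOX* expression in *Arabidopsis*, were mostly lower, with 8 lower, 1 higher and 4 not passing among 13 tested. Over all genes tested, 18.9% were lower and 20.3% were higher. *MtTCP10B* had 2 and 3 counts in calli with *MtWOX9-1* overexpression, against 111 and 66 counts in wildtype calli (log2 fold change −5.40, SE 0.41, edgeR adjusted p = 0.0027). *MtTCP18* had 0 and 10 counts in calli with *MtWOX9-1* overexpression, against 69 and 67 counts in wildtype calli (log2 fold change −4.08, SE 0.80, edgeR adjusted p = 0.017), and its log2 fold change was −3.08 without replicate 1 and −9.23 without replicate 2 of the calli with *MtWOX9-1* overexpression. *MtTCP21* was higher, with 121 and 100 counts in calli with *MtWOX9-1* overexpression, against 51 and 52 counts in wildtype calli (log2 fold change 0.75, edgeR adjusted p = 0.030), passing in 4 of 10 alternatives.

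**Figure D4:**
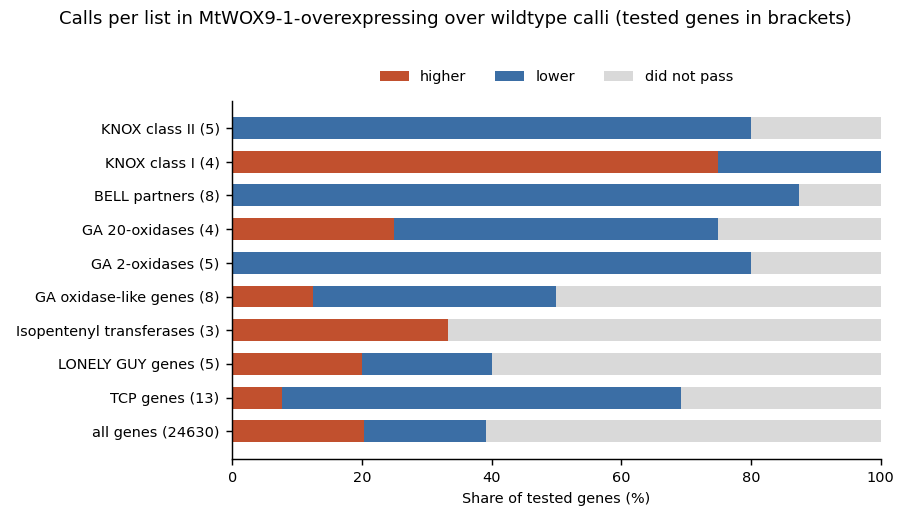
Share of the tested genes of each list (horizontal axis, %, number tested in brackets) that were higher (red) or lower (blue) in calli with *MtWOX9-1* overexpression than in wildtype calli, or did not pass (grey), by edgeR at an adjusted p under 0.05. The bottom bar shows all 24630 tested genes, with 20.3% higher and 18.9% lower, and the BELL partners show 7 lower of 8.

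Together, the lists of partners, targets and regulators held 78 genes, of which 48 were tested. Of these, 27 were lower, 5 were higher and 16 did not pass. The median log2 fold change of the 48 was −1.54 (−1.25 with genes at 0 in a group set at their bound). Over all genes tested, 18.9% were lower and 20.3% higher, with a median log2 fold change of 0.04. All comparisons shared the same 4 libraries, so the lists are not independent of each other or of the *KNOX* genes.

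Most marker genes of other cell identities also differed between the groups, in either direction, but the leaf gene *MtRCA* did not pass. All 6 genes listed here as embryo markers, *MtABI3* and 5 *MtPLT* genes, were higher. Their sums were 812 and 687 CPM in calli with *MtWOX9-1* overexpression, against 11.0 and 62.0 CPM in wildtype calli. In wildtype replicate 1, 3 of the 6 were at 0. Whether they mark embryos rather than other tissues was not tested. Of these 6, *MtPLT1* passed in 6 of 10 alternatives (adjusted p up to 0.28) and *MtPLT4* in 9 of 10, and the others passed in all 10. All 8 root cap genes tested were higher, with sums of 1453 and 2280 CPM in calli with *MtWOX9-1* overexpression, against 4.95 and 25.9 CPM in wildtype calli, where 4 and 1 of them were at 0. The shoot meristem gene *MtWUS* had 0 and 0 counts in calli with *MtWOX9-1* overexpression, against 6 and 12 counts in wildtype calli (edgeR adjusted p = 0.023, passing in 4 of 8 alternatives). *MtRCA*, a leaf gene, had 372 and 252 counts in calli with *MtWOX9-1* overexpression, against 247 and 318 counts in wildtype calli, and did not pass. The part of a different mixture of cells in the *KNOX* results was not tested.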

How the data were processed

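PolyA RNA of 2 libraries of calli with *MtWOX9-1* overexpression and 2 of wildtype calli was sequenced, and each column was matched to its sample by the sample description. The authors deposited whole-number counts per gene for 52709 genes, without normalization. The normalized signal the authors deposited beside them equals the counts times a constant for each library, and served only to check the counts. Log2 fold changes and p-values of the authors' own comparison stand in the same table and were not used, and the number of per-sample columns set aside was 0. The submitters' processing notes name Trimmomatic, HISAT2, StringTie and DESeq, and their settings, the strand handling and the treatment of multiply mapped reads are not given in the sources used here. Counts derived with StringTie are estimates, which bears on genes with few counts. Gene IDs follow MtrunA17r5.0-ANR. No gene lengths, coordinates within chromosomes or sequences were used here, so levels of different genes were not compared per length.

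Counts were analysed with edgeR 4.0.16 in R 4.3.3. Genes with at least 10 counts in total were kept, scaled by TMM (factors 1.04 and 1.06 for calli with *MtWOX9-1* overexpression and 0.937 and 0.970 for wildtype calli) and tested by the quasi-likelihood test on condition alone. P-values were adjusted by Benjamini-Hochberg over all genes tested. Standard errors were derived from the log2 fold change and the F statistic. For normalized counts, each count was divided by its library's effective size, and the result was scaled by the mean of these sizes. Where both libraries of a group were at 0, the fold is a bound against 3 counts in each library. This bound covers the group at 0 only, as the counts of the other group enter without their counting error. A run on simulated counts with planted changes served only to check the code, and says nothing on the error rate of the calls reported here. As the labels call the replicates biological without naming separate plants, p-values measure the spread between these libraries.

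Members, lists and tests were chosen with earlier results of these data known. All *KNOX* genes were named, and from each list up to 2 genes passing in each direction with the largest fold change, or every gene of a list of at most 3. Lists were matched by words in the acronyms and descriptions. The keywords for OVATE, secondary wall, CLV3, LEC1, FUS3 and photosystem genes matched none. Alternatives were DESeq2 1.42.0, DESeq2 size factors or library size alone in edgeR, filterByExpr, a minimum of 1 count, a replicate block, an adjusted p under 0.01, and each library left out in turn. A prior count of 2 was also tried, which changes fold changes but not p-values and is left out of the counts of alternatives passed. Alternatives that did not test a gene, or gave it no adjusted p-value, are left out of its number of alternatives.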

Additional observations from a re-analysis of the deposited data

How the results depend on the processing

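The lower level of *MtKNOX3*, *MtKNOX4*, *MtKNOX5* and *MtKNOX9* held under every alternative run. The calls of the other *KNOX* genes that passed rested on few counts and were lost under some settings. The 4 higher calls became 0 with DESeq2 (1 at an unadjusted p under 0.05), 0 with a minimum of 1 count (4 unadjusted), 0 at an adjusted p under 0.01, 1 with edgeR's filterByExpr, and between 0 and 4 when 1 library was left out. The replicate numbers only name the libraries, as the deviations of same-numbered libraries correlated at −0.03. The replicate block in edgeR gave 0 higher and 5 lower *KNOX* calls (4 and 6 at an unadjusted p under 0.05), with *MtFCL1* at an adjusted p of 0.059, *MtKNOX7* at 0.077, *MtKNOX1* and *MtKNOX8* at 0.098 and *MtKTN* at 0.093. The minimum of 1 count gave adjusted p-values of 0.056 for *MtKNOX7*, 0.060 for *MtKNOX1* and *MtKNOX8*, and 0.067 for *MtKTN*. DESeq2 gave no adjusted p-value for *MtKNOX1* and *MtKNOX8*. The sign of *MtKNOX10*, which passed nowhere, turned with library size as the only scaling (0.12) and when 1 library was left out (0.073 without wildtype replicate 1, 0.02 without replicate 1 of the calli with *MtWOX9-1* overexpression, lowest −0.11).

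Over all genes, the 4989 higher calls became 3261 with the replicate block, 1909 at an adjusted p under 0.01, and 2650 to 4465 when 1 library was left out. The 4659 lower calls became 3101 with DESeq2, 2022 at an adjusted p under 0.01, and 2903 to 3858 when 1 library was left out. In the lists of partners, targets and regulators, the 5 higher calls became 3 with DESeq2, 2 at an adjusted p under 0.01, and between 3 and 8 when 1 library was left out. The cause of these changes was not tested. Over all genes, the higher calls also fell to 3331 with DESeq2, and the lower calls to 3262 with the replicate block. With library size as the only scaling, the split was 6023 higher and 3928 lower. There were 90 fold changes of the tested *KNOX* genes under alternatives that bear on the p-value (*MtKTN* not counted). Of these, 71 kept their direction and side of the threshold, 16 lost the threshold and 3 changed sign. Alternatives in which *MtKNOX1*, *MtKNOX8* or *MtFCL1* had too few counts for testing or no adjusted p-value are not among the 90, and no call was possible there. Depth limited class I genes, *MtFCL1* and *MtKTN*, for which 3 counts stand for 0.450 to 0.572 CPM.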
